A study of Mus musculus with 8 samples.

Results

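The colon epithelium keeps microbes away from its surface with secreted proteins, and 6 mouse genes for such proteins or for their delivery are described here, namely *Reg3b*, *Reg3g*, *Retnlb*, *Ang4*, *Mptx1* and *Pigr*. They were taken by symbol from a table of 15859 genes, which held all 6, and all 6 were among the 14371 genes tested. Reg3b and Reg3g are C-type lectins that bind bacterial surfaces and are induced in the epithelium by interleukin-22 through STAT3. Retnlb is a resistin-like protein of goblet cells, Ang4 is an antimicrobial ribonuclease of the angiogenin family, and Mptx1 is a mucosal pentraxin. Pigr is the receptor that carries polymeric immunoglobulin A from the lamina propria into the lumen.

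Distal colon RNA of 8 male mice was sequenced, 2 in each group, all of a BALB/c x 129SvEV background and 10 weeks old by the sample labels (9.5 weeks in the series description). WT mice and *Hsf1* null mice, a line made without heat shock factor 1, were either untreated (day 0) or given AOM-DSS (day 15). The treatment was 1 injection of the carcinogen azoxymethane (AOM, 10 mg/kg) at 8 weeks and, from day 7, 5 days of drinking water with 1.5% dextran sulfate sodium (DSS), an agent that damages the epithelial lining. Total counts were 9393945 (replicate 1) and 2553348 (replicate 2) in WT day 0, 12440257 and 2675976 in *Hsf1* null day 0, 11097367 and 9247665 in WT day 15, and 7379442 and 7593259 in *Hsf1* null day 15. In each pair of values given for a group below, replicate 1 comes first. Levels are CPM, counts scaled to a common library size, on sizes adjusted by TMM normalization. 1 count was worth 0.0980 and 0.397 CPM in the WT day 0 libraries, and 0.0821 and 0.359 CPM in those of *Hsf1* null day 0, so low genes were measured less finely in replicate 2 of both day 0 groups. The protocol in the labels ends straight after DSS, whereas the sample titles say day 15, and the titles are followed here.

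*Hsf1* itself (ENSMUSG00000022556, chr15:76477422-76501913, plus strand) was at 40.5 and 36.5 CPM in WT day 0 and at 14.0 and 11.9 CPM in *Hsf1* null day 0. The day 15 levels were 50.4 and 45.9 CPM for WT, against 13.5 and 9.09 CPM for *Hsf1* null mice. All 4 null libraries lay below all 4 WT libraries, and reads were still counted on the gene in each of them. Epithelial RNA was present in every library, since the 12 pan-epithelial markers together were at 11379 and 16799 CPM in WT day 0, 18963 and 12619 in *Hsf1* null day 0, 16907 and 17894 in WT day 15, and 26299 and 22592 in *Hsf1* null day 15, with *Krt19* the most abundant.

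The comparisons asked how these genes responded to AOM-DSS in each genotype and whether the genotypes differed. In WT mice after AOM-DSS *Reg3b* and *Reg3g* rose, *Mptx1* and *Pigr* fell, and *Retnlb* and *Ang4* did not pass the test. In bulk tissue fewer cells of a type and less RNA per cell cannot be told apart, in these and all later values. Genes were called at a Benjamini-Hochberg adjusted p under 0.05 over all tested genes and an absolute log2 fold change above 1, by edgeR's quasi-likelihood test. Of the 6, 4 were called between day 15 and day 0 in WT mice, where 7.74% of tested genes were called, 3.47% as higher and 4.27% as lower at day 15. In *Hsf1* null mice, *Mptx1* was the 1 member called between the days, as lower at day 15, where 11.8% of tested genes were called and 6.48% as lower. Between the genotypes at day 15, *Reg3b* was called higher and *Mptx1* lower in WT mice, where 3.17% of tested genes were called, 1.25% as higher and 1.91% as lower in WT. At day 0, edgeR called 0 of the 6 genes and 0% of all tested genes, with 904 genes and 1 member (*Ang4*) at an unadjusted p under 0.05, and DESeq2 called 17 genes and 0 members. When the change with AOM-DSS was itself compared between WT and null mice, edgeR called 0 members and 0.00696% of tested genes (1 gene, *Slc15a2*, named because it was the 1 called). In that test 1238 genes and 4 members (*Reg3b*, *Reg3g*, *Mptx1* and *Pigr*) had an unadjusted p under 0.05, and DESeq2 called 120 genes and 1 member (*Pigr*). The comparisons share groups, so their values are given side by side.

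**Figure D1:**
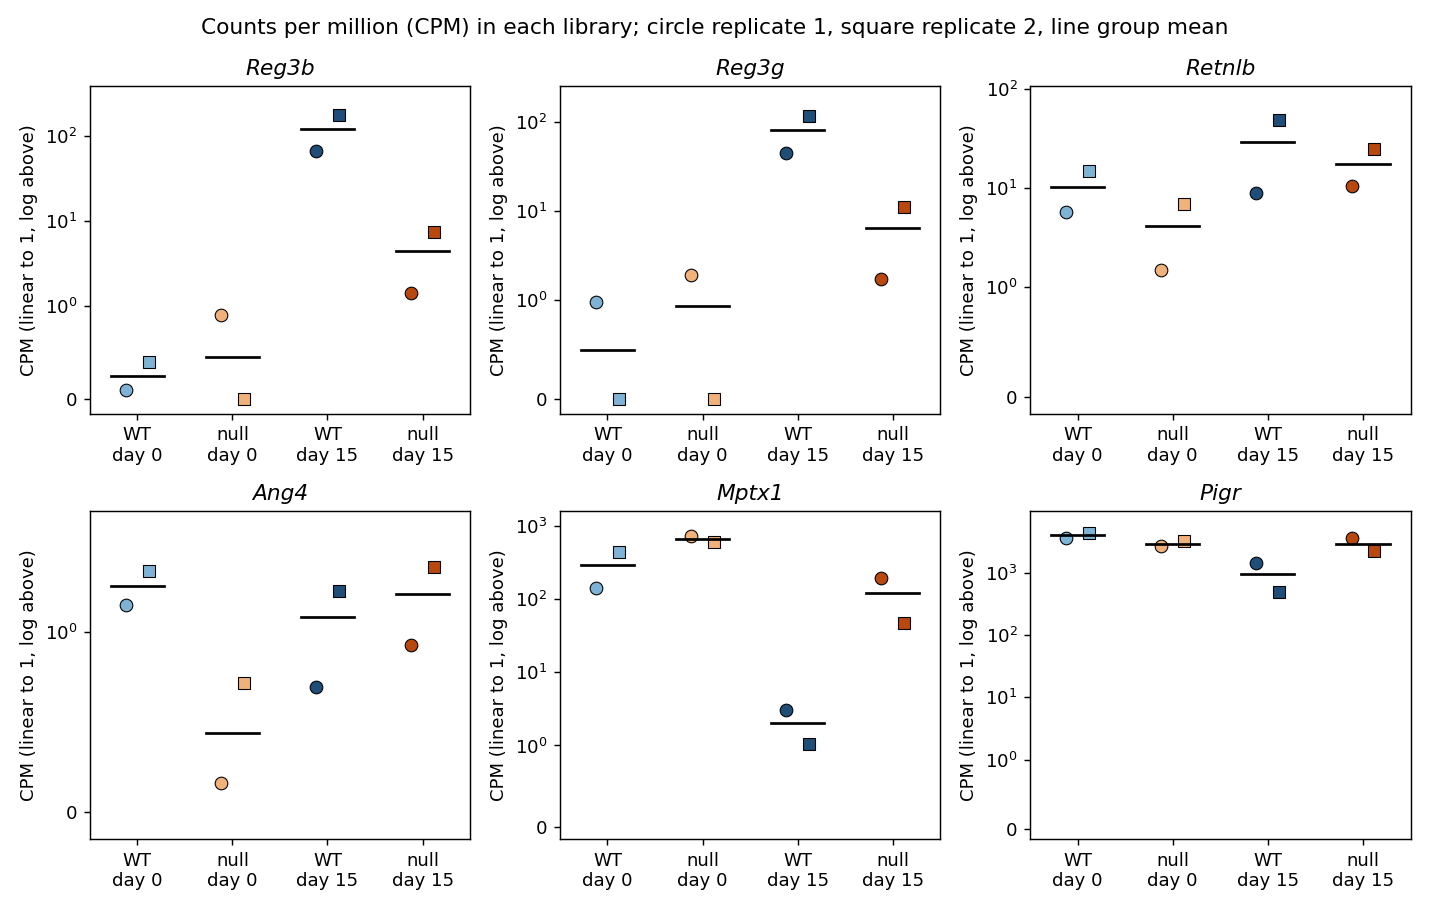
Level of each of the 6 genes in CPM (vertical axis, linear up to 1 and logarithmic above) in every library of the 4 groups, with replicate 1 as a circle, replicate 2 as a square and the group mean as a line. *Reg3b* and *Reg3g* stand highest in both WT day 15 libraries, where *Mptx1* (3.04 and 1.06 CPM) and *Pigr* (1428 and 488 CPM) stand lowest.

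The lectin *Reg3b* (ENSMUSG00000071356, chr6:78370657-78373466, plus strand, GRCm38) was close to absent from the untreated colon. It had 1 and 1 counts in WT day 0 (0.0980 and 0.397 CPM) and 11 and 0 counts in *Hsf1* null day 0 (0.903 and 0 CPM). After AOM-DSS the counts were 772 and 1708 in WT mice (67.1 and 180.3 CPM) and 9 and 55 counts in *Hsf1* null mice (1.40 and 7.35 CPM). Both WT day 15 libraries were above all others, and the lower of them was above the higher *Hsf1* null day 15 library. Group means were 0.247 ± 0.211 CPM (SD, n = 2) in WT day 0, 0.451 ± 0.638 in *Hsf1* null day 0, 124 ± 80.0 in WT day 15 and 4.37 ± 4.21 in *Hsf1* null day 15. In WT mice the pooled counts of 2480 against 2 gave a ratio of 753 between day 15 and day 0, with a 95% interval of 208 to 6217 that covers counting error only. The fitted log2 fold change was 9.45 (standard error 1.13, adjusted p = 0.00591 from edgeR), the third highest of all tested genes. With 2 pooled counts in WT day 0, its place in that order is no measure of size. The fitted WT value was 8.22 without replicate 1 and 10.1 without replicate 2 of WT day 0. In *Hsf1* null mice the same change was 2.67 (standard error 0.95, adjusted p = 0.0874), which missed the threshold although both day 15 libraries were above both day 0 libraries. It was 1.00 (adjusted p = 0.556) without replicate 2 of *Hsf1* null day 15, and the adjusted p over 17 alternatives ran from 0.0570 to 0.556. The WT change minus the null change was 6.78 (standard error 1.72, adjusted p = 0.380), so the difference between the genotypes in the change was not called. Without replicate 1 of *Hsf1* null day 0 only a library with 0 counts of *Reg3b* was left in that group, so the fitted null change of 8.01 (adjusted p = 0.144) and the difference of 1.43 (adjusted p = 0.973) are then no measure of size. In the other 15 alternatives the difference ran from 4.74 to 8.45, and over all 16 its adjusted p ran from 0.0712 to 0.973.

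At day 15 *Reg3b* was 27.7-fold higher in WT than in *Hsf1* null mice (log2 fold change 4.79, standard error 0.75, adjusted p = 0.0198 from edgeR). This call was lost without replicate 2 of WT day 15 (3.92, adjusted p = 0.0894) and without replicate 1 of *Hsf1* null day 15 (4.06, adjusted p = 0.0970). It was also lost without replicate 1 or replicate 2 of *Hsf1* null day 0 (adjusted p = 0.0526 and 0.0530), which enter this comparison through the shared estimate of the spread, and with only the day 15 groups fitted (adjusted p = 0.0716). Over 17 alternatives the log2 fold change ran from 3.92 to 6.45 and the adjusted p from 0.00157 to 0.0970. The rise in WT mice was called in all 17, with an adjusted p from 1.37e-06 to 0.0275.

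*Reg3g* (ENSMUSG00000030017, chr6:78466269-78468872, minus strand), the other lectin, lies on the same chromosome and followed the same order of groups. It had 10 and 0 counts in WT day 0 (0.980 and 0 CPM) and 23 and 0 counts in *Hsf1* null day 0 (1.89 and 0 CPM). At day 15 it had 515 and 1104 counts in WT mice (44.8 and 116.5 CPM) and 11 and 83 counts in *Hsf1* null mice (1.71 and 11.1 CPM). The replicate 2 libraries at 0 allow up to 1.19 CPM for WT and 1.08 CPM for *Hsf1* null, taking 3 counts as the limit. Unlike *Reg3b*, its *Hsf1* null libraries overlapped between the days, since the lower one at day 15 was below the higher one at day 0. Group means were 0.490 ± 0.693 CPM (SD, n = 2) in WT day 0, 0.944 ± 1.33 in *Hsf1* null day 0, 80.7 ± 50.7 in WT day 15 and 6.40 ± 6.64 in *Hsf1* null day 15. The change in WT mice was 108-fold (log2 fold change 6.76, standard error 1.12, adjusted p = 0.0111 from edgeR). It was lost as a call without replicate 2 of WT day 0 (6.34, adjusted p = 0.0632) and without replicate 2 of WT day 15 (5.95, adjusted p = 0.0512), and the adjusted p over 17 alternatives ran from 0.00132 to 0.0632. Without replicate 1 of WT day 0 only a library with 0 counts was left in that group, and the fitted value of 12.24 (adjusted p = 0.0415) is then no measure of size. The null change was 2.26 (standard error 1.00, adjusted p = 0.148), and it was 0.33 (adjusted p = 0.866) without replicate 2 of *Hsf1* null day 15, with an adjusted p over 17 alternatives from 0.0613 to 0.866. For *Reg3g* the difference between the changes was 4.50 (standard error 1.51, adjusted p = 0.456), with an adjusted p over 16 alternatives from 0.116 to 0.971. It was 9.98 (adjusted p = 0.605) without replicate 1 of WT day 0 and -1.80 (adjusted p = 0.919) without replicate 1 of *Hsf1* null day 0, where the null change was 8.55 (adjusted p = 0.140), and each of these is a fit over a group left with 0 counts of *Reg3g* and no measure of size.

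Between the genotypes at day 15, *Reg3g* was 12.4-fold higher in WT mice (log2 fold change 3.63, standard error 0.87), with an adjusted p of 0.0542 that just missed the threshold. It was called in 5 of 17 alternatives, namely scaled to the pan-epithelial markers (3.97, adjusted p = 0.0210), with no filter (3.63, 0.0445), thinned to the smallest library (3.48, 0.0371), without replicate 1 of WT day 15 (4.17, 0.0451) and without replicate 2 of *Hsf1* null day 15 (5.55, 0.0239). Over all 17 the adjusted p ran from 0.0210 to 0.258. Both lectins were higher in the WT day 15 libraries, and the difference was called for *Reg3b* and not for *Reg3g*. Counts of *Reg3b* exceeded those of *Reg3g* by 1.50 and 1.55 times in the WT day 15 libraries, whereas in *Hsf1* null day 15 the ratio was 0.818 and 0.663. At 9 to 83 counts per gene and library the ratio in *Hsf1* null mice was coarse, and it was not tested.

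The goblet cell product *Retnlb* (ENSMUSG00000022650, chr16:48816856-48818892, plus strand) was detected in every library. It was at 5.68 and 14.7 CPM in WT day 0 and at 1.48 and 6.82 CPM in *Hsf1* null day 0. Levels after AOM-DSS were 8.87 and 48.9 CPM for WT, against 10.5 and 24.6 CPM for null mice. The spread within each group was wide, and the genotypes overlapped at both days. Both *Hsf1* null day 15 libraries were above both *Hsf1* null day 0 libraries, while the WT libraries overlapped between the days. The log2 change was 1.58 in WT (standard error 0.87, adjusted p = 0.270) and 2.34 in *Hsf1* null mice (standard error 0.96, adjusted p = 0.124), and the difference between them was -0.75 (standard error 1.28, adjusted p = 0.895). The null change was called with the replicate number as a block (2.34, adjusted p = 0.0232) and with only the null groups fitted (2.29, adjusted p = 0.0495), and its adjusted p over 17 alternatives ran from 0.0232 to 0.449. The genotype difference in *Retnlb* was 0.71 at day 15 (standard error 0.82, adjusted p = 0.641) and 1.46 at day 0 (standard error 0.99, adjusted p = 0.836). The sign of the day 15 difference rested on 1 library, since it was -0.99 (adjusted p = 0.662) without replicate 2 of WT day 15, where the adjusted p over 17 alternatives ran from 0.303 to 0.942.

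The ribonuclease *Ang4* (ENSMUSG00000060615, chr14:51763878-51773590, minus strand) had 2 to 19 counts in each library. It had 15 and 6 counts in WT day 0 and 2 and 2 counts in *Hsf1* null day 0, and both WT libraries (1.47 and 2.38 CPM) were above both null libraries (0.164 and 0.718 CPM). At day 15 it had 8 and 17 counts in WT mice (0.696 and 1.79 CPM) and 6 and 19 counts in *Hsf1* null mice (0.930 and 2.54 CPM), and the genotypes overlapped. The pooled counts at day 0, 21 against 4, gave a WT to null ratio of 6.17 with a 95% counting interval of 2.08 to 24.7, but the fit across mice gave an adjusted p of 0.777 (log2 fold change 2.50, standard error 1.08). In *Hsf1* null mice the pooled counts of 25 against 4 gave a ratio of 6.71 between the days (interval 2.32 to 26.6), with an adjusted p of 0.141 from edgeR. edgeR called *Ang4* in 0 of the 5 comparisons, with an unadjusted p of 0.0437 at day 0 and 0.0432 in *Hsf1* null mice, and DESeq2 called it in 0 and gave it no adjusted p in 3 of them.

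The pentraxin *Mptx1* (ENSMUSG00000026531, chr1:174330518-174332873, plus strand) showed the deepest loss of the 6. It was at 142 and 444 CPM in WT day 0 and at 716 and 596 CPM in *Hsf1* null day 0. By day 15 its level was 3.04 and 1.06 CPM in WT mice (35 and 10 counts) and 194 and 46.4 CPM in *Hsf1* null mice (1252 and 347 counts). The WT and null libraries did not overlap at either day, with WT the lower at both, and day 15 was below day 0 in both genotypes. Group means were 293 ± 214 CPM (SD, n = 2) in WT day 0, 656 ± 85.0 in *Hsf1* null day 0, 2.05 ± 1.41 in WT day 15 and 120.2 ± 104 in *Hsf1* null day 15. In WT mice *Mptx1* fell by 7.11 on the log2 scale, a 138-fold loss (standard error 0.89, adjusted p = 0.00597 from edgeR), the fourth lowest value of all tested genes. The log2 change was -6.08 without replicate 2 of WT day 0 and -8.09 without replicate 1 of WT day 15. The fall in WT mice was called in all 17 alternatives, with an adjusted p from 2.59e-10 to 0.0332. The fall in *Hsf1* null mice was smaller, and *Mptx1* fell by 2.45, a 5.46-fold loss (standard error 0.69, adjusted p = 0.0452). That call was lost in 5 of 17 alternatives, with DESeq2 (-2.44, adjusted p = 0.0595), with the replicate block (-2.57, 0.0548), without replicate 1 (-2.31, 0.111) or replicate 2 (-2.58, 0.210) of *Hsf1* null day 0, and without replicate 2 of *Hsf1* null day 15 (-1.76, 0.125), and the adjusted p over the 17 ran from 0.00338 to 0.210. Without replicate 1 of *Hsf1* null day 15 the log2 change of *Mptx1* was -3.82 (adjusted p = 0.0403).

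Between the genotypes at day 15, *Mptx1* was 57.0-fold lower in WT mice (log2 fold change -5.83, standard error 0.85, adjusted p = 0.0158 from edgeR). Its size moved with 1 library, to -4.46 without replicate 1 of *Hsf1* null day 15 and -6.81 without replicate 1 of WT day 15. The call was lost without replicate 2 of WT day 15 (-5.30, adjusted p = 0.0861), without replicate 1 or 2 of *Hsf1* null day 0 (0.0526 and 0.0530), and with only the day 15 groups fitted (-5.86, 0.0692), and over 17 alternatives the adjusted p ran from 9.07e-07 to 0.0861. At day 0 the genotype difference was -1.17 (standard error 0.66, adjusted p = 0.813). The fall in WT mice exceeded that in *Hsf1* null mice by a log2 difference of -4.66 (standard error 1.04), which was not called (adjusted p = 0.323). Without replicate 2 of *Hsf1* null day 15 this difference was called (-5.35, adjusted p = 0.0440), and over 16 alternatives its adjusted p ran from 0.0440 to 0.971.

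*Pigr* (ENSMUSG00000026417, chr1:130826684-130852249, plus strand), the immunoglobulin receptor, was the most abundant of the 6 by counts. It was at 3688 and 4467 CPM in WT day 0 and at 2696 and 3249.9 CPM in *Hsf1* null day 0. After treatment the level was 1428 and 488 CPM for WT, against 3662 and 2302 CPM for null mice. Both WT day 15 libraries were below the other 6, and the *Hsf1* null libraries overlapped between the days. Group means were 4077 ± 551 CPM (SD, n = 2) in WT day 0, 2973 ± 392 in *Hsf1* null day 0, 958 ± 665 in WT day 15 and 2982 ± 962 in *Hsf1* null day 15. In WT mice it fell by 2.09 on the log2 scale, a 4.25-fold loss (standard error 0.50, adjusted p = 0.0355 from edgeR). The log2 change in WT mice was -3.06 without replicate 1 and -1.51 without replicate 2 of WT day 15. In *Hsf1* null mice the change was 0.0046 (standard error 0.48, adjusted p = 0.996), and its sign turned in 8 of 17 alternatives, among them the scaling to pan-epithelial markers (-0.65, adjusted p = 0.320). The difference between the changes was -2.09 (standard error 0.69, adjusted p = 0.454 from edgeR and 0.0479 with DESeq2), and its adjusted p over 16 alternatives ran from 0.0479 to 0.971.

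The fall of *Pigr* in WT mice was lost as a call in 6 of 17 alternatives. These were replicate 1 or 2 of WT day 0 left out (-2.22, adjusted p = 0.0615 and -1.95, 0.151), replicate 1 or 2 of *Hsf1* null day 0 left out (0.0626 and 0.0631), replicate 2 of WT day 15 left out (-1.51, 0.182), and only the WT groups fitted (-2.08, 0.0779). Over all 17 the adjusted p ran from 3.53e-05 to 0.182. Between the genotypes at day 15, *Pigr* was 3.11-fold lower in WT mice (log2 fold change -1.64, standard error 0.50, adjusted p = 0.0937), which missed the threshold. It was called with DESeq2 (-1.64, adjusted p = 0.00261) and without replicate 1 of WT day 15 (-2.61, 0.0405), and the adjusted p over 17 alternatives ran from 0.00261 to 0.391. At day 0 both WT libraries were above both null libraries, but the difference was 0.46 (standard error 0.48, adjusted p = 0.893).

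**Figure D2:**
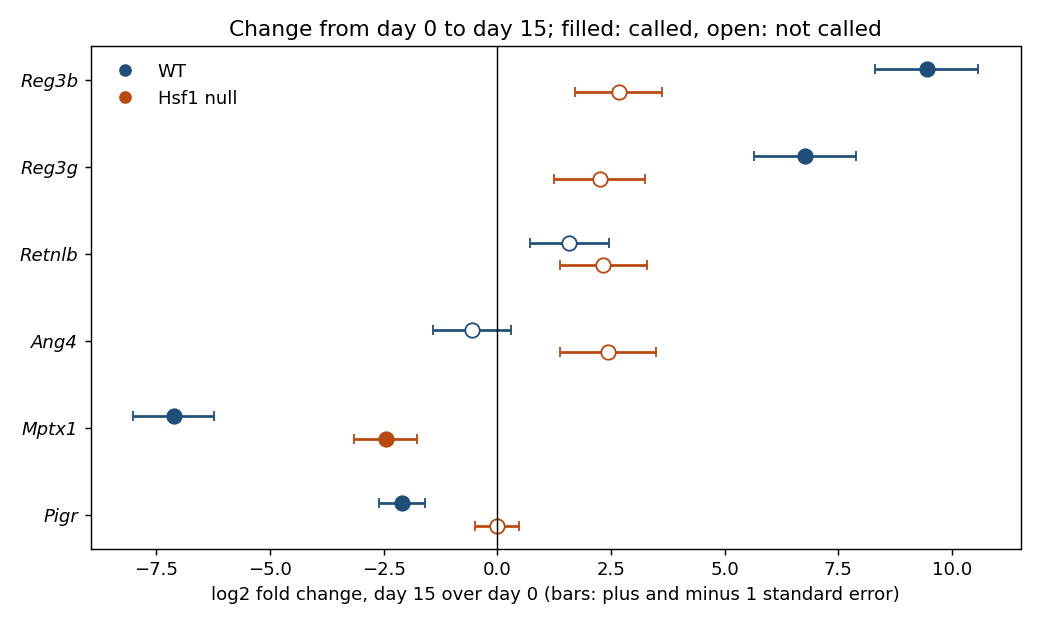
Log2 fold change from day 0 to day 15 of each of the 6 genes (horizontal axis) in WT (blue) and *Hsf1* null mice (orange), with bars of 1 standard error to each side, filled where called and open where not. *Reg3b* and *Reg3g* lie at 9.45 and 6.76 in WT and at 2.67 and 2.26 in *Hsf1* null mice, and *Mptx1* at -7.11 and -2.45.

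Groups that do not overlap were frequent among all genes, with 2 mice a side. Between the genotypes at day 15, 4 of the 6 members had no overlap, as did 54.8% of tested genes, and at day 0 it was 3 of the 6 and 37.1%. Between the days it was 4 of the 6 members in WT mice, where 62.5% of tested genes had no overlap, and 4 of the 6 in *Hsf1* null mice, where it was 61.3%. These shares were near the background and are not a result about the members. The median log2 fold change of the 6 was 0.10 between the genotypes at day 15 (0.035 over all tested genes), -0.21 at day 0 (0.011), 0.51 between the days in WT (0.0046), 2.30 in *Hsf1* null mice (0.052) and -1.42 for the difference between the changes (-0.0033). With 2 members rising and 2 falling in WT mice, a median over the 6 hides both directions.

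Levels of different genes were compared per kilobase of exon, from lengths of 1142 bases for *Reg3b*, 2114 for *Reg3g*, 696 for *Retnlb*, 709 for *Ang4*, 799 for *Mptx1* and 4025 for *Pigr*. In WT day 0 the order was *Pigr* (1013 CPM per kb), *Mptx1* (367), *Retnlb* (14.6), *Ang4* (2.72), then *Reg3g* (0.232) and *Reg3b* (0.217), which overlapped. In *Hsf1* null day 0, *Mptx1* (821) and *Pigr* (739) overlapped at the top, followed by *Retnlb* (5.96), and *Ang4* (0.622), *Reg3g* (0.447) and *Reg3b* (0.395) overlapped. The order changed most in WT day 15, where *Pigr* (238) and *Reg3b* (108) overlapped, *Retnlb* (41.5) overlapped with both *Reg3b* and *Reg3g* (38.2), and *Mptx1* (2.57) and *Ang4* (1.76) came last and overlapped too. In *Hsf1* null day 15 it was *Pigr* (741), *Mptx1* (151), *Retnlb* (25.2), then *Reg3b* (3.83), *Reg3g* (3.03) and *Ang4* (2.45), which overlapped. *Mptx1* thus ranked in the top 2 per length in 3 groups and in the last 2 in WT day 15. In summed counts the 6 genes took 0.417% and 0.487% of each WT day 0 library, 0.335% and 0.401% of *Hsf1* null day 0, 0.161% and 0.0858% of WT day 15 and 0.338% and 0.236% of *Hsf1* null day 15. *Pigr* made up between 58.4% and 96.2% of that sum.

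Over the 8 libraries, which share their 4 groups, Pearson's r of log2(CPM + 1) was 0.98 between *Reg3b* and *Reg3g*, 0.88 between *Mptx1* and *Pigr*, and -0.96 between *Reg3b* and *Mptx1*. *Retnlb* and *Ang4* were at 0.79 with each other. Among genes with a mean of at least 10 CPM, the patterns most like *Reg3b* were *Reg3g*, *Ly6c1* (0.98) and *Lcn2* (0.98), and those most like *Reg3g* were *Cd14* (0.99), *Ggt5* (0.99) and *Slc25a45* (0.99). For *Retnlb* they were *Car12* (0.91), *Tigar* (0.90) and *Socs1* (0.90), and for *Ang4*, measured with few counts, *Swsap1* (0.90), *Rprd1b* (0.88) and *AI506816* (0.87). For *Mptx1* they included *Acsl3* (0.99) and *Gm1123* (0.99), and for *Pigr* *D630039A03Rik* (0.98), *Zfp704* (0.98) and *Cd99l2* (0.98). *Lcn2*, which sequesters bacterial siderophores, was at 78.5 and 347 CPM in WT day 15 and at 4.34 and 8.29 CPM in *Hsf1* null day 15, so it shared the WT day 15 peak of *Reg3b*.

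Reads of near-identical relatives can be shared between genes, so the words of 50 bases in each member's transcripts were looked for in the transcripts of all other genes. For *Mptx1*, 17.9% of them also occurred in *Mptx2*, and for *Ang4* 4.70% occurred in *Ang2* or *Ang5*. None of these relatives was among the genes with deposited counts, so their levels could not be examined. Values of these 2 members are uncertain to that extent, since how shared reads were counted is not given in the sources used here. No word of *Reg3b*, *Reg3g* or *Retnlb* occurred in another gene, and the share was 0.458% for *Pigr*.

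Promoters from RefSeq (GRCm38.p6), from 250 bases before to 50 after the start, matched 5 of the 6 members, all but *Retnlb*. They were searched on both strands for the STAT site TTCNNNGAA, the paired heat shock units GAANNTTC and TTCNNGAA, and the CDX site TTTATG, which occur in 8.30%, 7.86%, 8.52% and 11.9% of 32851 promoters. *Reg3b* held a STAT match at position -129 and a CDX match at -172, and *Reg3g* held 1 heat shock match at -233 and no STAT match, counting back from the start. *Ang4* held a STAT match at -192, *Pigr* one at position 40 after the start, and *Mptx1* none of the motifs. The *Reg3b* and *Reg3g* promoters were 68.6% identical over 306 aligned columns, where the other pairs of members were between 43.4% and 48.3%. A match describes letters in the sequence and no binding was measured. The stretches before the start that no annotated exon covers are shown for the 4 genes called between the days in WT mice, with matches in capitals. They are chr6:78370707-78370860 on the plus strand for *Reg3b*, chr6:78468875-78469124 on the minus strand for *Reg3g*, chr1:174330268-174330517 on the plus strand for *Mptx1* and chr1:130826434-130826683 on the plus strand for *Pigr*. The *Reg3b* stretch lies inside the gene span given above, which begins at 78370657, because the RefSeq start used for it is further downstream.
Reg3b: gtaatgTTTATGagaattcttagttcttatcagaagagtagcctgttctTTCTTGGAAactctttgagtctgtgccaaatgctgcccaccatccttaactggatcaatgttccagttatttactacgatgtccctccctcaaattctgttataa
Reg3g: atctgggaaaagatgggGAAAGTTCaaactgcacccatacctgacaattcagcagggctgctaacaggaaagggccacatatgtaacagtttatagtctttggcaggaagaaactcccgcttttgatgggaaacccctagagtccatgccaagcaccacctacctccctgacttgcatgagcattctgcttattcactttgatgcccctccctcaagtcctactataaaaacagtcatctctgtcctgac
Mptx1: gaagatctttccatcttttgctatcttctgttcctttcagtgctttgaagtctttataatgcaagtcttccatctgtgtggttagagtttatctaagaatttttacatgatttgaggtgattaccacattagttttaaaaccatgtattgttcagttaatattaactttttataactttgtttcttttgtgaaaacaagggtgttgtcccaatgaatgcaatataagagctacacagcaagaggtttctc
Pigr: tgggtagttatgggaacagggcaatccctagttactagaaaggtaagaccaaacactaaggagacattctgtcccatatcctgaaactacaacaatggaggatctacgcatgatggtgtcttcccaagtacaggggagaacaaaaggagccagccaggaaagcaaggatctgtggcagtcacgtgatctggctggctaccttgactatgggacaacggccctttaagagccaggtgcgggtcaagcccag

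In the Reg family *Reg4*, 1 of 1 tested, was lower in WT than in *Hsf1* null mice at day 15 (log2 fold change -2.27, adjusted p = 0.0137), opposite in sign to *Reg3b*. Of 3 tested angiogenin and RNase A genes, *Rnase4*, a neighbour of the angiogenins, fell between the days in WT (-1.29, adjusted p = 0.0246) and in *Hsf1* null mice (-1.22, 0.0249), and none was called between the genotypes at day 15. Of 4 resistin-like and pentraxin genes, *Retnlg*, a neutrophil product, was called higher at day 15 in WT mice than in null mice (4.32, adjusted p = 0.0198), in WT day 15 against day 0 (6.59, 0.00597) and in *Hsf1* null day 15 against day 0 (3.83, 0.0461). It was the 1 gene of the 4 above 0 in the first 2 of these, where the medians were -1.15 and -2.12, and the other 3 were not called. No gene of these or the later lists was called at day 0 or for the difference between the changes.

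Of 20 inducible antimicrobial effectors tested, 10 were called higher and 0 lower in WT than in *Hsf1* null mice at day 15 (median log2 fold change 1.42), led by *S100a8*, *Chil3*, *Lcn2* and *S100a9*. Between the days 12 rose and 1, *Ccl28*, fell in WT mice (median 2.63, led by *Chil3*, *Saa3*, *S100a9* and *S100a8*, where *Chil3* had 0 counts in both WT day 0 libraries, so its place in the order is no measure of size), and 8 rose in *Hsf1* null mice (median 1.31, led by *Pla2g2a*, *Pglyrp2*, *Nos2* and *Saa3*). *Reg3b* and *Reg3g* went the way of that list in WT mice, and *Mptx1* and *Pigr* the other way. *S100a8*, *S100a9* and *Ltf*, called in that list, are also among the neutrophil markers below, as is *Retnlg* of the resistin-like genes. The calls in these lists are therefore not separate, and the effector list is not purely epithelial. Of 19 inducing cytokines, receptors and signal genes, *Il1b* (3.66, adjusted p = 0.0461), *Il33* (3.23, 0.0443) and *Socs3* (3.20, 0.00630), the last a feedback target of STAT3, were higher in WT mice at day 15. *Il22*, *Il4* and *Il13*, also listed, were not among the genes with deposited counts, so the part of *Il22* was not tested. In the same list 6 rose in WT mice between the days, led by *Il1b*, *Socs3*, *Il33* and *Tnf*, and *Tnf* and *Socs3* rose while *Il13ra1* and *Tlr4* fell in *Hsf1* null mice. Of 13 mucus barrier proteins, *Clca1* (-2.86, adjusted p = 0.0210), *Zg16* (-2.82, 0.0307) and *Fcgbp* (-2.14, 0.0496) were lower in WT mice at day 15, the direction of *Mptx1*, while *Muc2* was not called (-1.37, 0.116). Between the days *Clca1* (-3.11, adjusted p = 0.00881), *Zg16* (-2.60, 0.0228) and *Tff3* (-1.80, 0.0362) fell in WT mice, where *Mptx1* and *Pigr* fell, and edgeR called 0 of the 13 in *Hsf1* null mice (medians -0.43 and 0.47).

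Markers of cell types moved with the members. Of 9 neutrophil markers tested, 5 were higher in WT mice at day 15 (median 4.26), and the 10 in the table summed to 139 and 542 CPM in WT day 15, 7.13 and 25.5 in *Hsf1* null day 15, 12.7 and 4.36 in WT day 0 and 4.76 and 5.39 in *Hsf1* null day 0, with *S100a9* the most abundant. *Ngp* was at 0 in all libraries but those of WT day 15. Between the days 6 of the 9 rose in WT mice, where *Reg3b* and *Reg3g* rose, and *Retnlg* alone was called in *Hsf1* null mice. The neutrophil sums had the order of *Reg3b* and *Reg3g* within each day 15 group. So did the sums of the macrophage, fibroblast, and IgA and plasma cell lists, so that order was not particular to neutrophils. The part of neutrophils in the rise of these lectins was not tested. Of 7 absorptive colonocyte markers, *Slc26a3*, *Aqp8* and *Slc20a1* fell between the days in WT mice (median -2.03), where *Mptx1* and *Pigr* fell, and *Slc26a3* and *Car1* fell in *Hsf1* null mice (median -0.30), where *Mptx1* fell. At day 15 *Aqp8* and *Slc20a1* were lower in WT than in null mice (median -1.64), as was *Mptx1*, and the 7 summed to 3398 and 6102 CPM in WT day 0, 9049.9 and 8952 in *Hsf1* null day 0, 887 and 2176 in WT day 15 and 7292 and 2714 in *Hsf1* null day 15, with *Car1* the most abundant. The part of these markers in the levels of *Mptx1* and *Pigr* was not tested. The median log2 fold change of the 12 pan-epithelial markers between the days was 0.12 in WT mice and 0.57 in *Hsf1* null mice. Of 12 genes of IgA and plasma cells, whose product Pigr transports, *Jchain* (4.24, adjusted p = 0.0241), *Mzb1* (2.39, 0.0241) and *Xbp1* (1.35, 0.0279) were higher at day 15 in WT than in null mice, where the *Pigr* difference of -1.64 was not called (adjusted p = 0.0937). Between the days *Jchain* (-2.70, adjusted p = 0.0365) and *Xbp1* (-1.25, 0.0201) fell in *Hsf1* null mice, and *Irf4* rose in WT mice (1.53, 0.0499), where *Pigr* fell, while the median of the 12 was 0.034 in null mice, with 6 above 0, and 1.35 in WT mice, with 11 above 0. *Jchain*, the most abundant, was at 1705 and 1617 CPM in WT day 0, 471 and 1378 in *Hsf1* null day 0, 2745 and 2613 in WT day 15 and 46.8 and 237 in *Hsf1* null day 15.

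Of 12 macrophage markers *C1qa* and *C1qb* were higher in WT mice at day 15 (*Lyz2* most abundant), of 10 smooth muscle markers *Synm* was lower (*Acta2* most abundant), and of 10 fibroblast markers none was called there (*Fn1* most abundant), while *Dcn* fell between the days in *Hsf1* null mice. Smooth muscle markers fell in WT mice between the days for 7 of 10, led by *Actg2*, *Tagln*, *Synm* and *Des*, beside the falls of *Mptx1* and *Pigr*, and their part in those falls was not tested. Macrophage markers rose between the days in WT mice for 4 of 12, *C1qa*, *C1qc*, *C1qb* and *Cd14* (median 1.53), beside the rises of *Reg3b* and *Reg3g*, and edgeR called 0 in *Hsf1* null mice (median 0.40). Markers of Paneth cells and small intestine were low, summing to between 12.8 and 62.9 CPM, with *Rbp2* the most abundant, and of 4 tested *Fabp6* was lower in WT mice at day 15 and *Mmp7* rose between the days in WT mice. Of 3 pancreatic acinar genes tested, *Clps* was lower in WT mice at day 15, *Clps* and *Cela1* fell between the days in WT mice, and the list, with *Cela1* the most abundant, was lowest in the WT day 15 libraries (72.9 and 31.9 CPM), where *Reg3b* and *Reg3g* were highest.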

How the data were processed

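Distal colon RNA of 8 mice was analysed, grouped by the genotype and day in the sample labels. The authors prepared libraries with the Lexogen SENSE mRNA-seq kit, aligned reads to mm10 (GRCm38) with STAR and deposited unnormalized counts per gene symbol; the counting program is not given in the sources used here. Every gene in the deposited table has at least 6 counts in 1 sample. A second table of normalized values was not used.

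Genes whose counts divided by DESeq2 size factors averaged above 5 were kept. Counts were fitted in R 4.3.3 with edgeR 4.0.16 (TMM, quasi-likelihood, 1 model of the 4 groups, prior degrees of freedom 5.97), with Benjamini-Hochberg adjustment within each of 5 comparisons. Log2 fold changes are WT minus *Hsf1* null or day 15 minus day 0, and standard errors are the fold change divided by the square root of F. With 2 mice per group an exact permutation test cannot go below 0.333, and p-values rest on the spread shared across genes. Intervals and limits cover counting error only. Fits were tested on simulated data first. Positions and exon lengths come from GENCODE M21 on GRCm38.

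Alternatives were DESeq2 1.42.0, DESeq2 size factors, upper-quartile factors, scaling to the 12 pan-epithelial markers, no filter, filterByExpr, a replicate block, thinning to 2553348 counts, a fit of only the groups in question, and leaving out each sample. The members and gene lists were chosen with earlier results of these data known. All members were named, and *Hsf1*, called genes of each list (all where 5 or fewer, otherwise the 4 with the largest change), the most abundant marker of a list, and the 3 genes most like each member. Values of some genes are not reported here.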

Additional observations from a re-analysis of the deposited data

Results flagged for a closer look

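*Slc15a2*, a peptide transporter, was the 1 gene whose change from day 0 to day 15 passed the test of a difference between the genotypes. It was at 0.686 and 0 CPM in WT day 0, 31.2 and 19.0 in *Hsf1* null day 0, 11.4 and 15.7 in WT day 15 and 0.155 and 0.401 in *Hsf1* null day 15, so it went up in both WT libraries and down in both null libraries. The difference between the log2 changes was 11.09 (standard error 0.98, adjusted p = 0.00761 from edgeR), and its cause was not tested. The call was lost without replicate 1 or replicate 2 of *Hsf1* null day 0 and without replicate 1 of *Hsf1* null day 15, since 0 genes were then called by edgeR. None of the 6 epithelial members passed that test in edgeR.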

How the results depend on the processing

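The number of genes called between the genotypes at day 15 (455) was 1209 with DESeq2 and 6 with only the day 15 groups fitted, and between 12 and 871 with 1 library left out. The members called there (2) were 0 with only those groups, and between 0 and 4 with 1 library left out. A lone sample was assumed to vary like the other groups. At day 0, 0 genes became 17 with DESeq2, 1 with the pan-epithelial scaling and 2 with only those groups, and between 0 and 17 with 1 library left out. In WT mice 1112 genes became 1729 with DESeq2 and between 113 and 1331 with 1 library left out, and the 4 members called became 2 to 4. In *Hsf1* null mice 1692 genes became 0 to 1888 with 1 library left out, and the 1 member called became 0 with DESeq2, 2 with only the null groups and 0 to 1 with 1 library left out. For the difference between the changes, 1 gene became 120 with DESeq2, 8 with the pan-epithelial scaling, 2 with no filter, 2 with thinning and 0 to 50 with 1 library left out, and 0 members became 1 with DESeq2 and 0 to 1 with 1 library left out. Where fewer groups or samples were fitted, the spread was estimated from fewer mice, and for the other settings the cause was not tested.

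The pan-epithelial scaling moved the median log2 fold change of all genes to 0.43 at day 15, -0.24 in WT, -0.53 in *Hsf1* null mice and 0.34 for the difference between the changes. With it the day 15 calls split into 281 higher and 118 lower in WT (180 and 275 otherwise), 196 rose and 619 fell in WT mice (499 and 613), and 147 rose and 2190 fell in *Hsf1* null mice (761 and 931). Called members kept their direction in every alternative that gave a value.

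Signs turned for values that were not called. The *Pigr* change in *Hsf1* null mice was -0.0215 with upper-quartile factors, -0.65 with the pan-epithelial scaling, -0.011 with thinning, -0.0055 with only the null groups and between -0.36 and 0.30 with 1 library left out. With 1 library left out, the day 15 difference ran from -0.99 to 1.47 for *Retnlb* and from -1.31 to 0.40 for *Ang4*, and the day 0 difference from -2.65 to 3.36 for *Reg3b* and from -6.35 to 5.43 for *Reg3g*, which was 0.49 with thinning. The WT change of *Retnlb* ran from -0.13 to 2.35, and the difference between the changes from -1.80 to 9.98 for *Reg3g* and from -2.43 to 0.22 for *Retnlb*. Counts of 0 to 23 per library at day 0 limit the *Reg3b* and *Reg3g* values. *Ang4* was not tested after thinning, since it fell below the filter.

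Same-numbered mice are different animals. Deviations of same-numbered samples from their group means correlated between -0.30 and 0.20 across genes. With 2 mice per group this cannot exclude a factor shared by same-numbered libraries. With the replicate block, 343 genes were called between the genotypes at day 15, 868 between the days in WT, 1506 in *Hsf1* null mice and 2 for the difference between the changes, and the *Pigr* change in null mice was -0.061.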
